A study of Mus musculus with 69 samples.

Results

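Genes for heat shock proteins, for DnaJ co-chaperones and for the cytosolic chaperonin were followed in the livers of old mice fed rapamycin (Rapa) or a control diet. The members were all probes whose platform gene symbol starts with Dnaja, Dnajb, Dnajc, Hspa, Hspb, Hspd, Hspe, Hsph or Hsp90, or with Cct and a digit. Hspa5, Hsp90b1 and Dnajb9 were left out. This rule gave 96 probes of 70 genes, out of 25697 probes on the array. Total liver RNA of 69 C57BL6/J mice was hybridized to Illumina bead arrays at 25 months of age, 1 array per mouse. The groups were 21 Rapa females, 16 control females, 13 Rapa males and 19 control males. Rapa mice had received 14 ppm of encapsulated rapamycin in the food for 21 months, from 4 months of age. Control mice received the same chow with the Eudragit capsule material alone. The sample titles divide the Rapa males into Rapa-2 (6 mice) and Rapa-1 (7 mice). The study drew this division from these same arrays, so p-values for either subgroup are descriptive and are no independent evidence. The study also reported more rapamycin in the livers of Rapa-2 than of Rapa-1 males, a measure that was not analysed here.

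Molecular chaperones bind unfolded or partly folded proteins and prevent their aggregation. HSP70 proteins work in cycles of ATP hydrolysis that J-domain (DnaJ or HSP40) proteins start and that exchange factors such as the HSP110 proteins end. Chaperonins are ring-shaped chambers, HSP60 with its lid HSP10 in mitochondria and the CCT complex, which folds actin and tubulin, in the cytosol. Heat shock factor 1 (HSF1) induces many of these genes through heat shock elements, inverted repeats of the unit NGAAN in their promoters. Liver carries a high load of protein synthesis and holds many mitochondria.

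Promoter sequences are shown first, because the mitochondrial pair Hspd1 and Hspe1, on which several results turn, share 1 stretch that matches the element. RefSeq promoters of build GRCm38.p6 run from 250 bases before the transcript start to 50 bases after it, and 57 of the 70 member genes had one. A heat shock element of 3 units was searched for on both strands, as the triplets TTC and GAA in alternation, in either order, with any 2 bases between neighbours. Overlapping matches were joined. It was present in promoters of 4 of the 57 member genes (7.02%), namely Hspd1, Hspe1, Hsph1 and Dnajb6, and in 0.662% of 27025 genes with a promoter. The shorter element of 2 units occurred in 33.3% of member genes and in 17% of all genes. A match is a description of the sequence and not a bound site. In the following 30-base windows, read 5′ to 3′ on the strand of the gene, capitals mark the element.
Hspd1: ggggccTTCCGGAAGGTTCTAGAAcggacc
Hspe1: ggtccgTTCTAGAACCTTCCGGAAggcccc
Dnajb6: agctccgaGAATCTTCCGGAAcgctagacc
Hsph1: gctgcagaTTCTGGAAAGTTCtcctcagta
The Hspd1 and Hspe1 windows are the same stretch, chr1:55088053-55088082, read on the minus and on the plus strand. The genes lie head to head, and the shared run of 4 units spans 18 bases. Read along each gene, it begins 144 bases before the annotated Hspd1 start used here and 89 bases before the Hspe1 start. The outer bounds of the Hspd1 gene reach to position 55088243. The stretch therefore lies inside them, and they overlap the Hspe1 gene, which begins at 55088148. The Dnajb6 window is chr5:29735844-29735873 on the plus strand, with the element beginning 46 bases before the nearer of its annotated starts. The Hsph1 window is chr5:149636279-149636308 on the minus strand, with the element beginning at base 16 when the nearer start is counted as base 1.

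Tests were limited to probes detected at p under 0.05 on 13 or more arrays. These were 52 member probes of 43 genes, among 12442 probes in all. Of the 44 member probes left untested, 32 were detected on no array and 12 on a few. The 27 genes with no tested probe include Hsp90aa1 (the inducible cytosolic HSP90, 2 probes detected on 0 arrays) and Hspa1a (inducible HSP70, detected on 1 array). Whether the Hspa1a probe also reads the near-identical Hspa1b was not examined. Hspa1b and Hsp90ab1 were not analysed here. For the CCT complex, Cct3, Cct4, Cct6a, Cct6b and Cct8 were tested, whereas Cct2, Cct5 and Cct7 were detected on 0, 2 and 4 arrays. Values below are log2 signals after quantile normalization. Where a gene has 2 tested probes, the one with the higher mean over all arrays is called the brighter probe. RefSeq annotates 5 pseudogenes of Hspd1 and 7 of Hspe1, and a probe's signal cannot be told apart from RNA of such copies.

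The groups also differed in array measures that bear on these values. The raw median signal of an array was 84 to 96.8 in Rapa-2 males and 117 to 131 in Rapa-1 males, against 114 to 146 in control males. In Rapa females it was 87.9 to 117, against 92.4 to 119 in control females. The brightest 0.1% of probes began at a signal of 24322 to 28800 in Rapa-2 males. That signal was 36568 to 45823 in Rapa-1 males and 29113 to 45054 in control males. It was 12742 to 30174 in Rapa females and 24186 to 33500 in control females, and its part in the results was not tested. The share of all probes detected averaged 39.9% ± 1.3 in Rapa females and 43.6% ± 1.9 in control females (SD, n = 21 and 16). Rapa-2 males averaged 42.1% ± 1.3, Rapa-1 males 42.5% ± 1.6 and control males 43.8% ± 1.2 (SD, n = 6, 7 and 19). Animal numbers of the 2 diets do not interleave within a sex, and every Rapa-2 male has a higher number than every Rapa-1 male. The order of the animals therefore cannot be told apart from these groups. Control females fall into a lower and a higher run of numbers (7 and 9 mice), as do control males (7 and 12 mice). The tested hepatocyte markers were bright in all groups, with summed log2 levels of 17.8 to 18.0 on every array. Of these 10 markers, 3 were lower and 0 higher in Rapa females, and 4 lower and 0 higher in Rapa-2 males. In Rapa females 3 of 10 endothelial, 2 of 9 stellate cell and 1 of 8 Kupffer cell markers were lower and 0 higher. Over all genes, 18.7% were lower in Rapa females, and over all probes 15.4% were lower in Rapa-2 males. Of 7 tested neutrophil markers, 5 were lower in Rapa females. Their summed level was 10.2 to 15.9 (median 12.0) in Rapa females and 10.7 to 16.4 (median 13.7) in control females. In whole liver, fewer cells of a type and less RNA per cell cannot be told apart, and the part of these markers in the results below was not tested.

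The first comparison asked what chronic Rapa feeding did to the chaperone transcripts of females. The mitochondrial chaperonin signal of 1 Hspd1 probe, of Hspe1 and the signals of the CCT subunits Cct8 and Cct4 were lower in Rapa females. The J-domain genes Dnajb2, Dnajb12 and Dnajc5, the small heat shock protein Hspb6 and the HSP70 exchange factor Hspbp1 were higher after quantile normalization. In all, 21 of 52 member probes passed (40.4%), 12 higher and 9 lower, where passing meant a limma adjusted p below 0.05 together with a change exceeding 15%. Among all 12442 probes 38.4% passed, 20% higher and 18.5% lower, so the members' share was close to the background. The median log2 difference was 0.07 over the members and 0.03 over all probes. The groups did not overlap for 0 of 52 member probes and for 0.49% of all probes.

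The other probe of Hspd1, which encodes HSP60, had log2 signals of 8.34 to 9.90 (median 8.85) in Rapa females and 8.96 to 10.33 (median 9.97) in control females. The signal in 20 of 21 Rapa females lay below the control mean, although the ranges overlapped. The log2 difference was -1.02 ± 0.11 (SE, limma adjusted p = 1.2e-09), or 0.492 of the control level. The brighter Hspd1 probe did not pass. It was at 9.58 to 10.62 (median 10.37) in Rapa females and 9.32 to 10.74 (median 10.32) in control females, a log2 difference of 0.09 (95% interval -0.12 to 0.31). Hspe1, which encodes the HSP10 lid, was at 7.41 to 7.93 (median 7.65) in Rapa females and 7.41 to 8.36 (median 7.88) in control females. Its difference was smaller, -0.24 ± 0.06 on the log2 scale (SE, limma adjusted p = 0.001). The plot of chaperonin signals shows every liver.

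**Figure D1:**
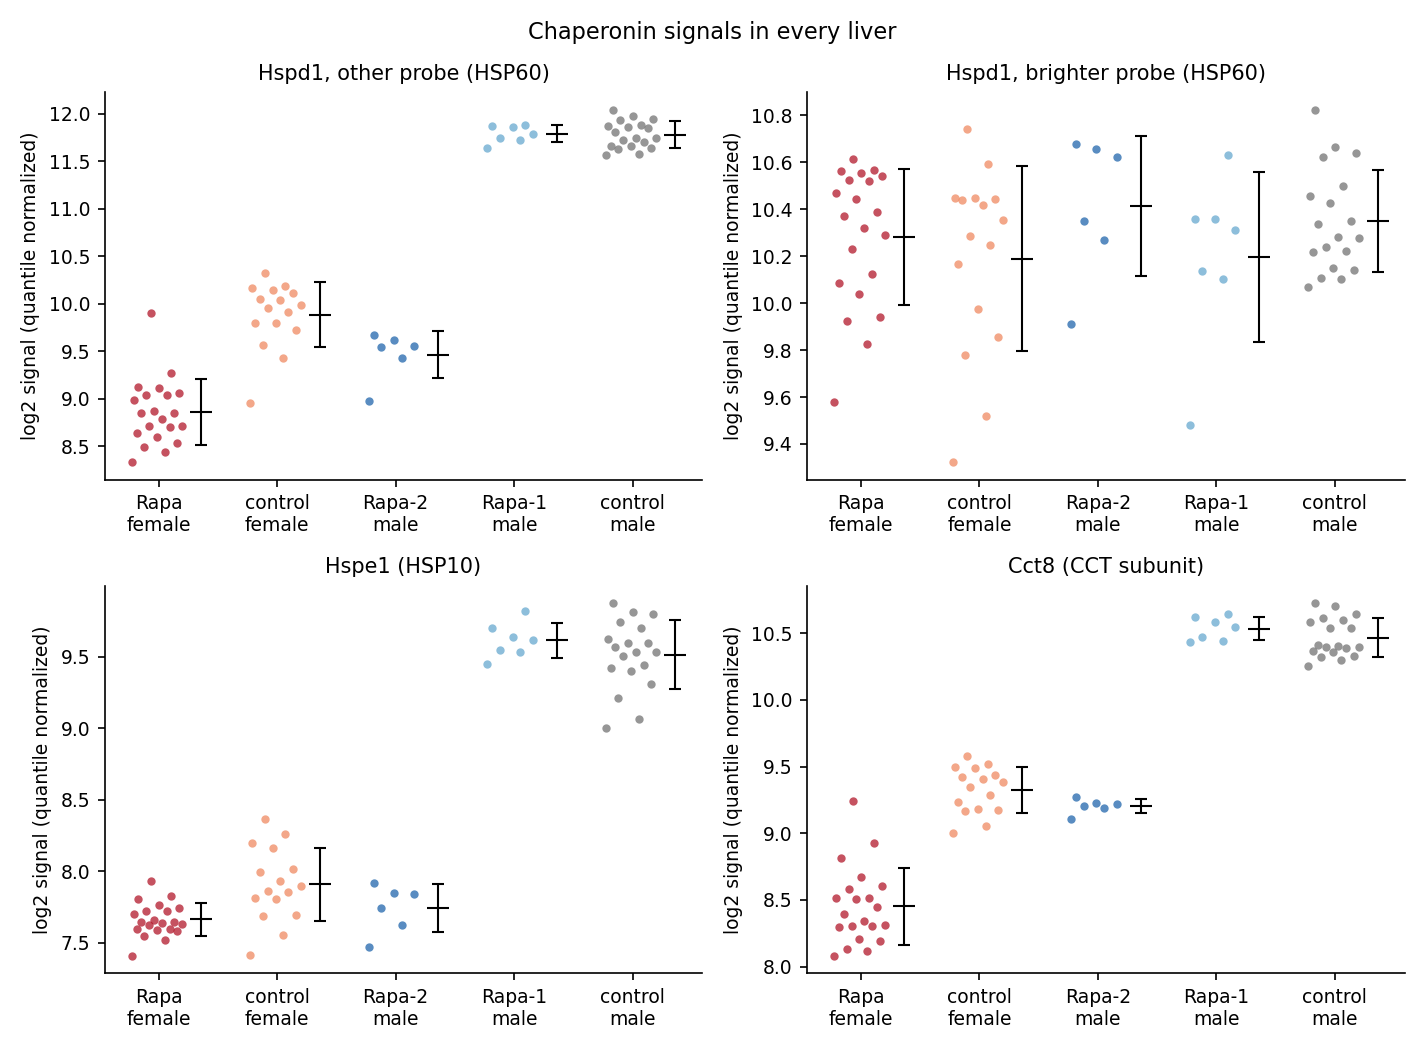
Quantile-normalized log2 signal (vertical axes) of both Hspd1 probes, Hspe1 and Cct8 in each liver, by group (21 Rapa female, 16 control female, 6 Rapa-2 male, 7 Rapa-1 male and 19 control male mice). Points are mice and bars are mean ± SD. For the other Hspd1 probe, Hspe1 and Cct8, Rapa-2 males lie below every Rapa-1 and control male, and the brighter Hspd1 probe overlaps in all groups.

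The mitochondrial HSP70 Hspa9 (mortalin) also differed between its probes. The brighter probe was at 12.63 to 13.20 (median 12.84) in Rapa females and 12.80 to 13.25 (median 12.99) in control females, and its log2 difference of -0.15 did not reach a change of over 15%. The other Hspa9 probe rose by 0.26 ± 0.07 (SE) after quantile normalization, but was at -0.13 after median scaling. Dnaja3 (Tid1), the mitochondrial J-domain partner of Hspa9, behaved alike, at 0.21 after quantile normalization and -0.17 after median scaling. Dnajc19, a component of the mitochondrial import motor, fell by 0.21 on its brighter probe, and its other probe was at 0.13 and did not pass. Of 11 mitochondrial probes, 2 were higher and 3 lower.

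In the CCT complex, 4 of 6 probes passed. Cct8 was at 8.08 to 9.24 (median 8.39) in Rapa females and 9.00 to 9.58 (median 9.36) in control females. All 21 Rapa females were below the control mean, and the log2 difference was -0.87 ± 0.08 (SE, limma adjusted p = 4.3e-11). Cct4 was at 10.71 to 11.52 (median 11.04) in Rapa females and 11.12 to 11.94 (median 11.52) in control females, a log2 difference of -0.44 ± 0.07 (SE). Control females of the lower run of numbers were at 11.52 to 11.94 for Cct4, and those of the higher run at 11.12 to 11.53. Both probes of Cct3 went the other way, at 0.24 and 0.37, but these directions turned to -0.20 and -0.06 after median scaling. Cct6a, at 0.08, and Cct6b, at -0.07, did not pass. Cct6b was near background, detected on 5 of 21 Rapa female and 15 of 16 control female arrays. The tested subunits of this 1 complex thus had calls in both directions after quantile normalization.

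Hspa8, the constitutive cytosolic HSP70 and among the brightest members, had opposite calls on its probes. The brighter probe was at 13.18 to 13.97 (median 13.60) in Rapa females and 13.45 to 14.34 (median 14.02) in control females, and its log2 difference was -0.40 ± 0.08 (SE, limma adjusted p = 4.3e-05). The other probe was at 12.08 to 13.04 (median 12.47) in Rapa females and 11.76 to 12.46 (median 12.28) in control females. This probe was 0.26 higher after quantile normalization and at -0.11 after median scaling. Hspa2, an HSP70 best known from testis, was at -0.22 and 0.09 on its probes, and neither passed. Of the HSP110 exchange factors, Hsph1 was at 0.12 (95% interval -0.14 to 0.37) and Hspa4 at -0.08, and neither passed.

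Among J-domain genes, Dnajb2 had the largest rise of any member. This ubiquitin-binding co-chaperone was at 10.01 to 10.86 (median 10.61) in Rapa females and 9.19 to 10.33 (median 10.02) in control females. All 21 Rapa females exceeded the control mean, and the log2 difference was 0.69 ± 0.10 (SE, limma adjusted p = 2.5e-07), or 1.61-fold. It was the only member that still passed as higher after median scaling, at 0.26. Dnajb12 (an ER membrane protein, 0.39), Dnajc5 (cysteine string protein, 0.39), Dnajb6 (a suppressor of protein aggregation, 0.27) and Dnajc4 (0.21) also rose, but stood at -0.01, -0.06, -0.18 and -0.12 after median scaling. Dnaja2, a J-domain partner of Hspa8, was at 6.59 to 7.14 (median 6.82) in Rapa females and 6.91 to 7.51 (median 7.19) in control females, detected on 3 of 21 and 16 of 16 arrays. Its log2 difference was -0.39 ± 0.05 (SE). Dnajc16, an ER J-domain protein, fell by 0.32. The inducible Dnajb1 (HSP40) was at 0.12 (95% interval -0.03 to 0.28) and Dnaja1 at -0.06, and neither passed.

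Dnajc12, a co-chaperone of phenylalanine hydroxylase in humans, fell by 0.97 on average (SE 0.31, limma adjusted p = 0.0081), with the widest spread of all members. It was at 7.79 to 10.53 (median 8.36) in Rapa females and 8.04 to 11.44 (median 10.08) in control females. Only 15 of 21 Rapa females were below the control mean, and the ranges of both groups overlapped widely. The small heat shock protein Hspb6 (HSP20) was at 10.05 to 11.06 (median 10.42) in Rapa females and 9.27 to 10.53 (median 10.06) in control females. Its difference of 0.40 ± 0.09 (SE) turned to -0.04 after median scaling. Hspbp1, an HSP70 exchange factor, was 0.35 higher after quantile normalization and at 0.00 after median scaling. Hspb1 (HSP25), at 0.14 (95% interval -0.15 to 0.44), and Hspb8, at 0.15, did not pass.

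**Figure D2:**
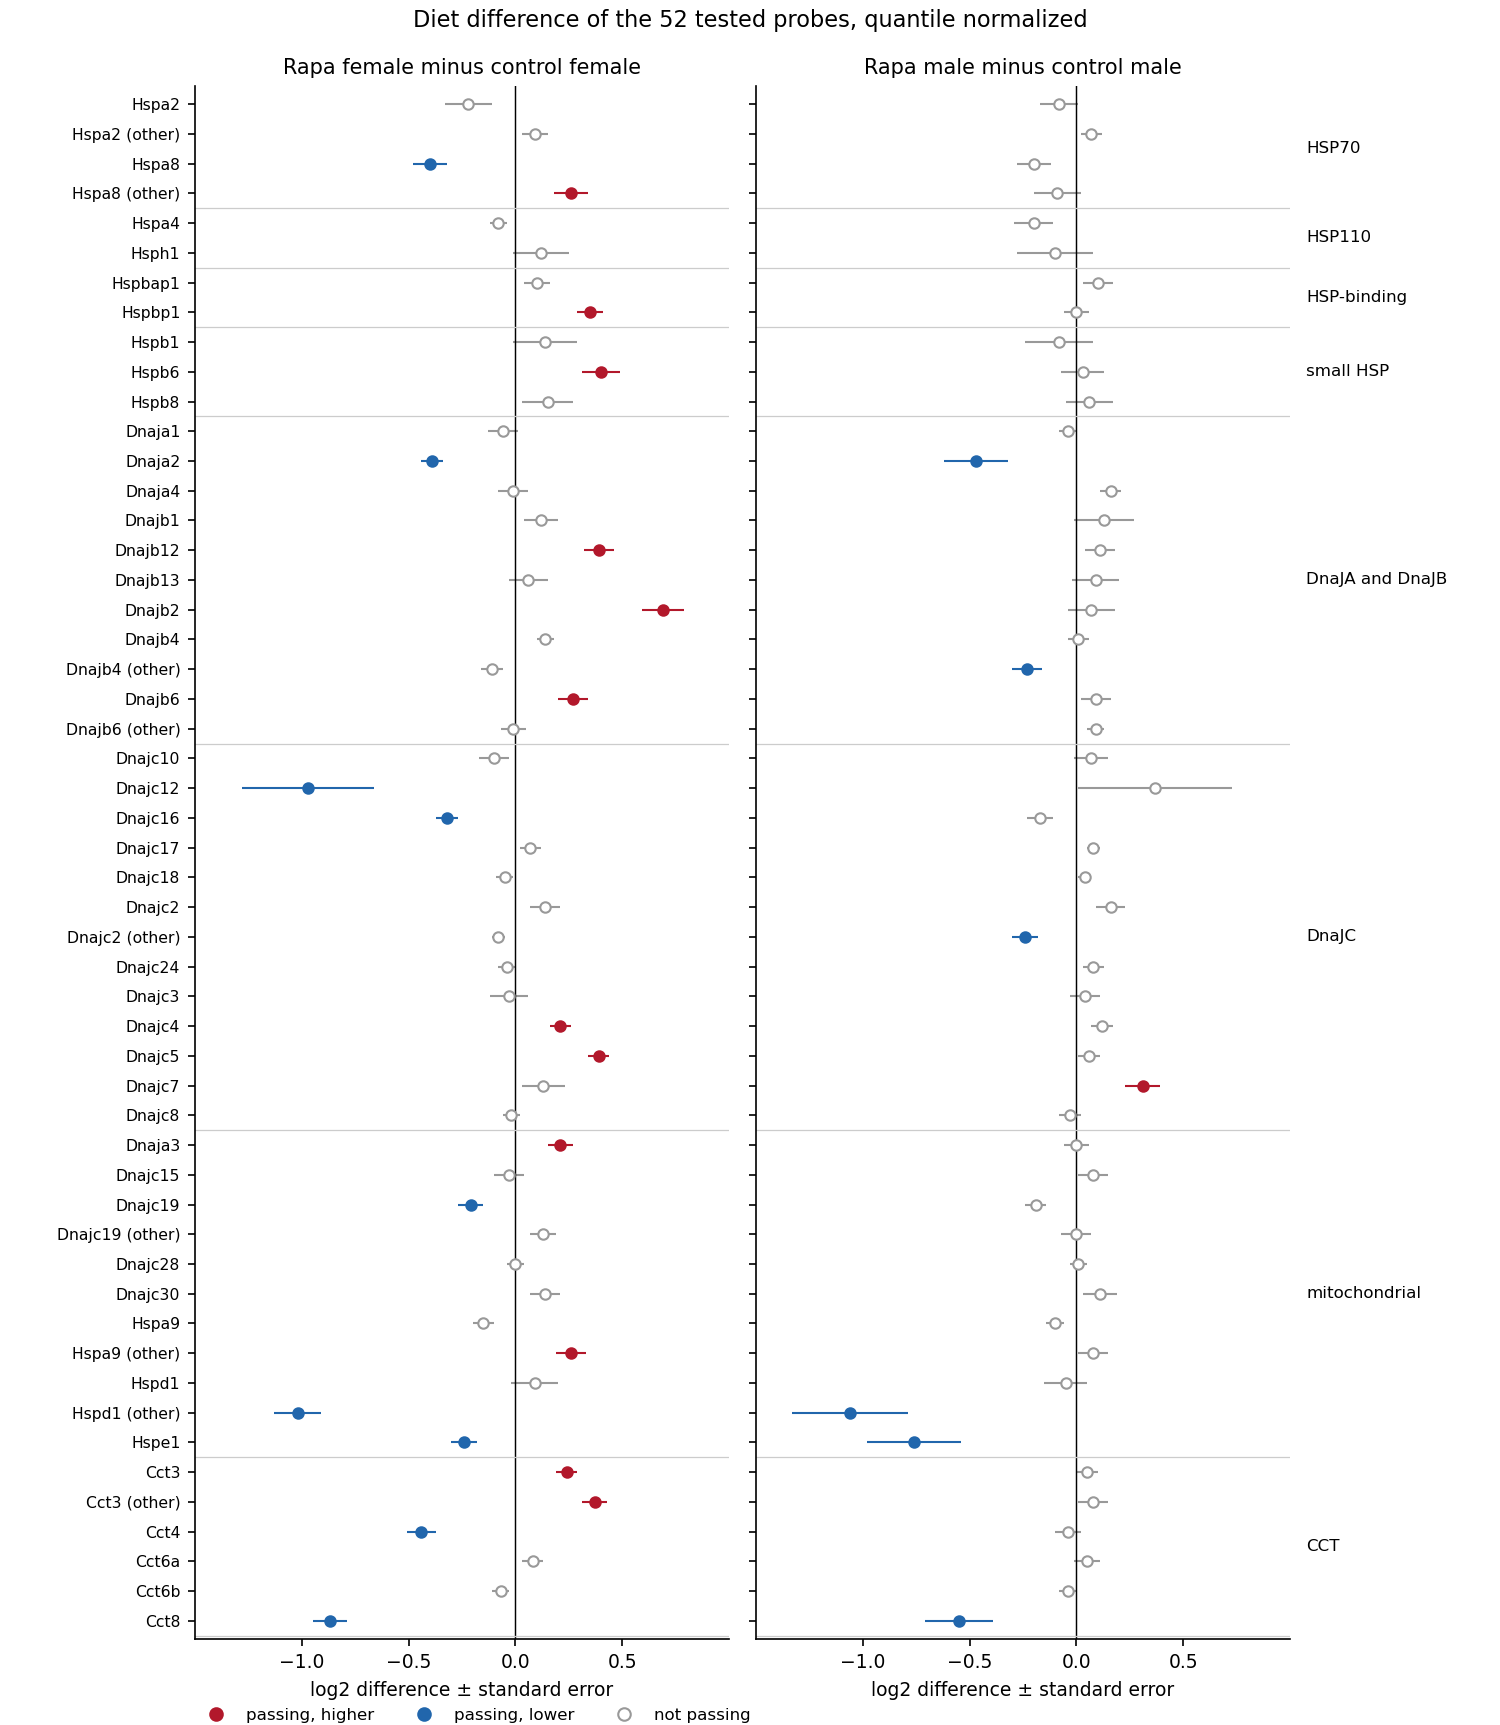
Log2 difference ± standard error (horizontal axes) of the 52 tested member probes between Rapa and control females (left) and between all Rapa and control males (right), grouped by role, after quantile normalization. Filled points passed, 12 higher and 9 lower in Rapa females and 1 higher and 6 lower in Rapa males. After median scaling, of the 12 higher in females only Dnajb2 still passed as higher, and the 1 higher in males, Dnajc7, did not pass.

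Median scaling moved all probes of the female comparison, with a median over all probes of -0.20 against 0.03 after quantile normalization. Of the passing probes, 1.33% were then higher, against 51.9%. Under it 21 members passed, 1 higher and 20 lower, of which 10 were among the 21 that passed after quantile normalization. With each array's share of detected probes as a covariate, 7 members passed, 2 higher and 5 lower, among them Hspd1 (other probe, -0.86), Cct8 (-0.66), Dnaja2 (-0.22), Dnajc16 (-0.24) and Dnajc5 (0.36). Dnajb2, Cct4 and Hspe1 were at 0.08, -0.11 and -0.28 and no longer passed. With only the lower or the higher run of control females, 26 and 16 members passed, and Hspd1's other probe was at -1.20 and -0.89. The shares of all probes with that covariate or either run are not given here.

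In males, the same comparison of Rapa with control gave fewer calls. Over all 13 Rapa males, 7 of 52 member probes passed (13.5%), 1 higher and 6 lower, against 10.6% of all probes, 3.06% higher and 7.52% lower. The lower members were Hspd1 (other probe), Hspe1, Cct8, Dnaja2 and the other probes of Dnajb4 and Dnajc2. The other Dnajc2 probe was detected on 0 of 6 Rapa-2, 7 of 7 Rapa-1 and 19 of 19 control male arrays, and on 0 female arrays. It entered the tests only through the groups where it is high, so its call here is not independent support. The other Dnajb4 probe was also detected on 0 of 6 Rapa-2 arrays, but on all Rapa-1 and control male arrays. Dnajc7, a co-chaperone that binds both HSP70 and HSP90, was higher. It was at 9.16 to 9.65 (median 9.40) in Rapa males and 8.57 to 9.65 (median 9.11) in control males, 0.31 ± 0.08 on the log2 scale (SE, limma adjusted p = 0.012). The values were above the control mean in 13 of 13 Rapa males. With the lower run of control males alone the Dnajc7 difference was 0.49, and with the higher run it was 0.20 and no longer passed. Against either run alone, 1 and 0 members passed. After median scaling the lower 6 passed again and Dnajc7 did not.

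The 6 lower members were split within the Rapa males. The other Hspd1 probe was at 8.98 to 9.67 (median 9.55) in Rapa-2 males and 11.64 to 11.88 (median 11.79) in Rapa-1 males, against 11.56 to 12.04 (median 11.74) in control males. Every Rapa-2 male was below every control male, while Rapa-1 males lay within the control range. The log2 difference from control males was -2.31 ± 0.08 in Rapa-2 males and 0.01 ± 0.06 in Rapa-1 males (SE). Hspe1 was at 7.47 to 7.92 (median 7.79) in Rapa-2 males and 9.45 to 9.82 (median 9.62) in Rapa-1 males, against 9.00 to 9.88 (median 9.54) in control males. Cct8 was at 9.11 to 9.27 (median 9.21) in Rapa-2 males and 10.43 to 10.64 (median 10.54) in Rapa-1 males, against 10.25 to 10.73 (median 10.40) in control males. Both genes thus had the same split, with log2 differences of -1.77 and -1.26 in Rapa-2 males and 0.10 and 0.07 in Rapa-1 males. Dnaja2 was at 6.75 to 7.13 in Rapa-2 males and 7.90 to 8.37 in Rapa-1 males, against 7.82 to 8.42 in control males. The brighter Hspd1 probe did not share this split, at 9.91 to 10.68 in Rapa-2 males and 9.48 to 10.63 in Rapa-1 males, against 10.07 to 10.82 in control males.

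The raw median signal of the arrays showed the same split of the males, and its part in these results cannot be told apart from the division. With the raw median as a covariate over all males, 0 members passed, and Hspd1's other probe was at -0.04, Hspe1 at 0.05, Cct8 at 0.01 and Dnaja2 at 0.04. In the Rapa-2 comparison with that covariate they were at -2.16, -1.74, -1.33 and -1.08. Raw medians of Rapa-2 and control males do not overlap, so this fit cannot separate the measure from the group. The 19 control males had raw medians of 114 to 146, so relations within them do not cover the 84 to 96.8 of Rapa-2 males. Within these control males no relation of these probes with the raw median passed. Pearson's r was 0.17 for Hspd1's other probe, 0.08 for Hspe1, -0.06 for Cct8 and 0.00 for Dnaja2 (permutation test, adjusted p of 0.68 or more over 15 relations), and Spearman's rho lay between -0.12 and 0.13. Within Rapa females Dnaja2 followed the raw median with r = 0.66 and rho = 0.79 (permutation test, adjusted p = 0.019 and 0.0012), and r was 0.58 without the 2 arrays farthest from the median. Cct8 had r = 0.52 and rho = 0.68 there (adjusted p = 0.063 and 0.0062), and r = 0.56 without those arrays. Within control females r was negative for all 4 probes, between -0.62 and -0.13, with adjusted p of 0.063 or more. The other Hspd1 probe overlapped between the 2 runs of control males, at 11.56 to 12.04 in the lower run and 11.63 to 11.97 in the higher.

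Against control males, 22 of 52 members passed in Rapa-2 males (42.3%), 13 higher and 9 lower, where 36.3% of all probes passed, 20.9% higher and 15.4% lower. The groups did not overlap for 11.6% of all probes and for 8 members, some of which entered the tests only through the groups where they are high. Among the 40 members detected on every array of both groups the groups did not overlap for 4, namely Hspd1 (other probe), Hspe1, Cct8 and Dnajc2 (brighter probe). This share of 10% was close to that of all probes so detected, 10.4%. The other 4 were Dnaja2, detected on 4 of 6 Rapa-2 arrays, and Hspa4 and the other probes of Dnajb4 and Dnajc2. Hspa4 (Apg-2, an HSP110 exchange factor) was not detected on any Rapa-2 array and was at least 1.3-fold lower than in control males. The other probes of Dnajb4 and Dnajc2 were likewise undetected, at least 1.25-fold and 1.14-fold lower. These bounds set the control mean against the lowest signal of detected probes, or the probe's own where that was higher. Dnajc2, a ribosome-associated J-domain protein, rose on its brighter probe, at 8.28 to 8.64 (median 8.51) in Rapa-2 males and 7.79 to 8.20 (median 8.09) in control males. Its log2 difference was 0.43 ± 0.05 (SE). After median scaling 10 members passed, 1 higher and 9 lower, and the brighter Dnajc2 probe was the one higher, at 0.37.

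Dnajb1 was at 9.97 to 11.20 (median 10.49) in Rapa-2 males and 9.48 to 10.93 (median 10.09) in control males, 0.42 ± 0.16 on the log2 scale (SE, limma adjusted p = 0.038). Dnajb2 (0.33), Dnajc7 (0.31), the ER disulfide reductase Dnajc10 (0.26), Dnajb12 (0.25), Dnajc4 (0.24), Dnajb6 (0.24) and Dnajc15 of the mitochondrial import motor (0.24) also passed as higher in Rapa-2 males, but Dnajb6 turned to -0.18 with the raw array median as covariate. Dnajb1 kept its call in 6 of 14 alternatives, and neither Dnajb1 nor Dnajb6 passed after median scaling (0.39 and 0.19). The brighter Hspa8 probe fell by 0.31 and Dnajc16 by 0.33. Hsph1, at 0.17, Hspb1, at 0.03, and Dnaja1, at -0.04, did not pass. In Rapa-1 males 0 of 52 members passed and 0.378% of all probes did. At an unadjusted p under 0.05 there were 7 members in limma (13.5%), close to the 13.8% of all probes, and 0 passed by the methods' t-test or any other alternative run. Dnajc12 had the largest difference in Rapa-1 males, 0.83, with values of 7.87 to 11.05 in Rapa-1 males against 7.74 to 10.51 in control males. Hsph1 was at -0.33 (95% interval -0.72 to 0.06).

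Control females were set against control males, the control groups of the female and of the male Rapa comparisons. Of 52 members 18 passed (34.6%), 8 higher and 10 lower in control females, and 35.6% of all probes passed, 19.5% higher and 16.1% lower. Among the 40 members detected on every array of both groups, the groups did not overlap for 4 (10%), and for 4.12% of all probes so detected. These 4 were the other Hspd1 probe (-1.89 ± 0.08), Hspe1 (-1.60 ± 0.08), Cct8 (-1.14 ± 0.05) and Dnaja2 (-0.88 ± 0.05), all lower in females (log2 difference ± SE). Hspa4 and the other Dnajc2 probe also did not overlap, but entered the tests through the male arrays, so that over all 52 members the count was 6, and 5.51% of all probes. Hspa4 was detected on 4 of 16 control female and 19 of 19 control male arrays. The other Dnajc2 probe was detected on 0 of 16 control female arrays and was at least 1.16-fold lower than in control males. The other Hspd1 probe was at 8.96 to 10.33 (median 9.97) in control females and 11.56 to 12.04 (median 11.74) in control males. Hspe1 was at 7.41 to 8.36 (median 7.88) in control females and 9.00 to 9.88 (median 9.54) in control males. The raw medians of these arrays were 92.4 to 119 in control females and 114 to 146 in control males. The part of that measure in the sex difference was not tested beyond its use as a covariate, with which 17 members passed. Cell type markers also moved with sex. Of 7 tested neutrophil markers 5 were higher in control females (median 1.45), with a summed level of 10.74 to 16.44 in control females and 10.27 to 15.67 in control males (log2). Of 10 endothelial markers 6 were higher and 2 lower, and the part of either list was not tested.

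Higher in control females were Dnajc12 (1.25 ± 0.32), Dnajc24 (a diphthamide synthesis factor, 0.40 ± 0.04), mitochondrial Dnajc30 (0.40 ± 0.08), Cct4 (0.36 ± 0.07), Hspa2 (0.35 ± 0.11) and Dnaja4 (0.28 ± 0.06), given as log2 difference ± SE. Dnajc24 was at 8.19 to 8.59 (median 8.47) in control females and 7.76 to 8.24 (median 8.07) in control males. The ranges met only at their ends. Dnajb6 passed on both probes in opposite directions, -0.23 on the brighter and 0.21 on the other. Dnajb1, Hsph1, Hspb1 and the brighter Hspd1 probe, at 0.03, -0.06, -0.20 and -0.16, did not pass.

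Whether the Rapa difference itself differed by sex was tested as an interaction over all 69 arrays, the female difference minus the male one. It passed for 9 of 52 members (17.3%), 7 positive and 2 negative, against 17.5% of all probes, 9.15% positive and 8.38% negative. Dnajb2 (0.62 ± 0.15), Hspb6 (0.37 ± 0.14), Hspbp1 (0.35 ± 0.09), the other Hspa8 probe (0.35 ± 0.13), Dnajc5 (0.33 ± 0.07), the other Cct3 probe (0.29 ± 0.09) and Dnajb12 (0.28 ± 0.10) were positive (log2 ± SE). After median scaling none of these 7 passed, and Hspb6, Dnajc5, the other Cct3 probe and Dnajb12 turned to -0.01, -0.05, -0.06 and -0.04. Cct4 (-0.39 ± 0.09) and Dnajc12 (-1.34 ± 0.48) were negative and still passed after median scaling. Cct4 was at 10.79 to 11.27 (median 11.04) in Rapa males and 10.85 to 11.41 (median 11.06) in control males, with medians below that of control females. In control females Cct4 was at 11.52 to 11.94 in the lower run of numbers and 11.12 to 11.53 in the higher run. Over 15 alternatives the Cct4 interaction kept its call in 11 and lay between -0.73 and -0.21. For the other Hspd1 probe the interaction was 0.04 (95% interval -0.51 to 0.59), and for Hspe1 it was 0.52 (limma adjusted p = 0.085).

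**Figure D3:**
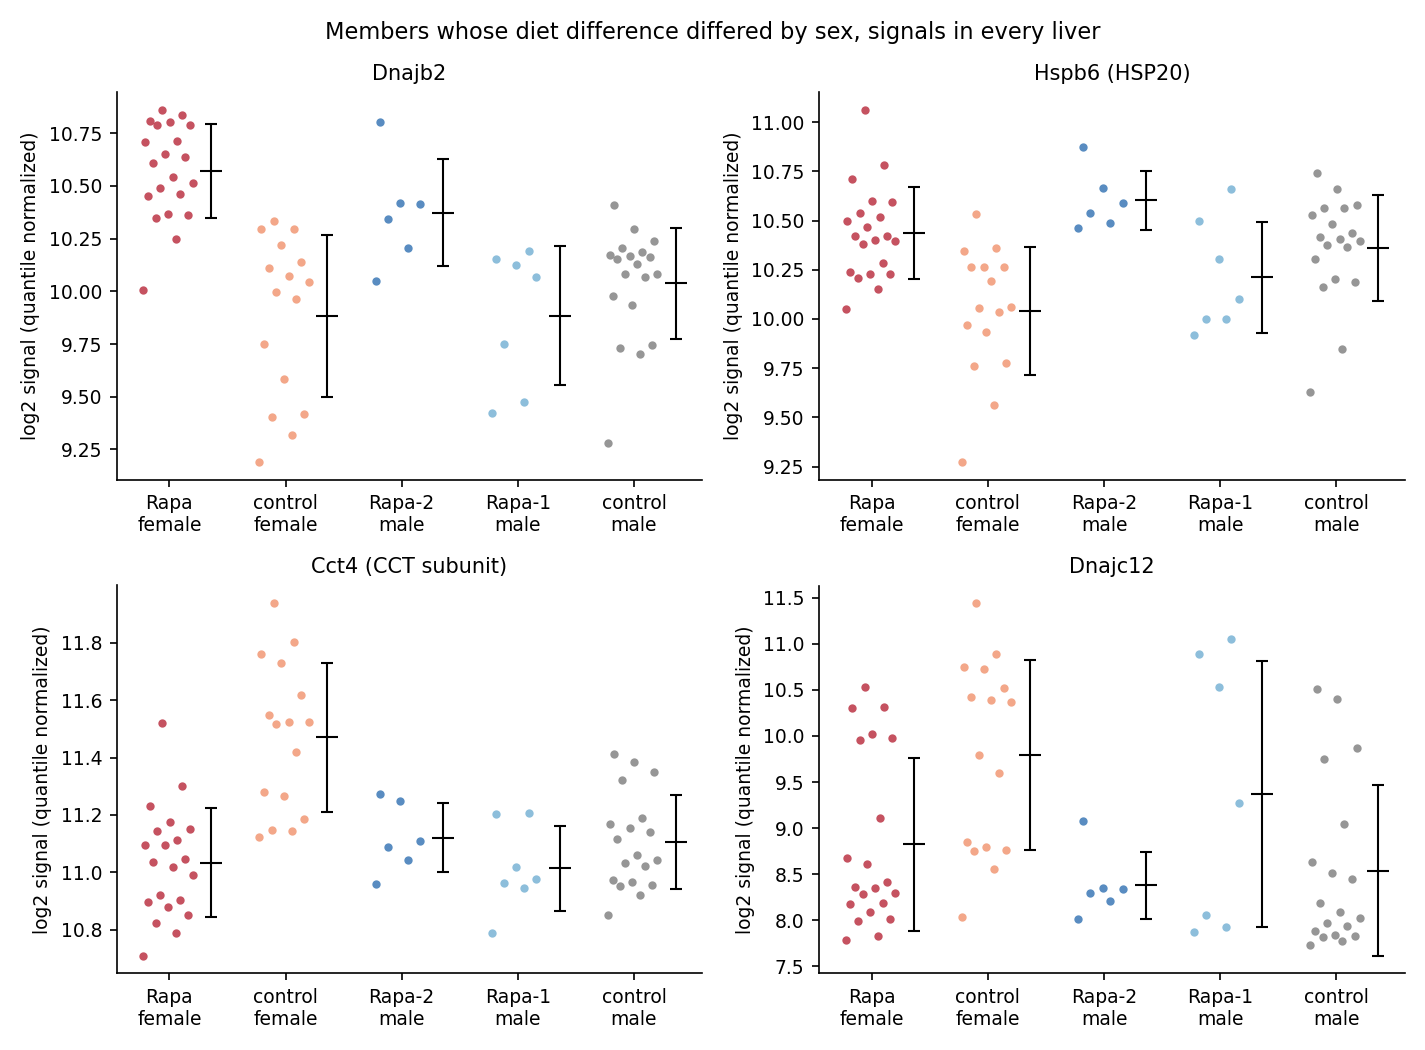
Quantile-normalized log2 signal (vertical axes) of 4 members that passed the interaction of diet and sex, in each liver by group, with mean ± SD. Dnajb2 and Hspb6 stand higher in Rapa females than in control females (Hspb6 at -0.04 after median scaling). Control females stand high for Cct4, mostly those of the lower run of numbers. Dnajc12 is spread widely in every group but Rapa-2 males.

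The interaction depended on which males and which control females entered. Without Rapa-1 males 12 members passed, of which 2 (Cct4 and Dnajc5) were among the 9, and without Rapa-2 males 18 passed, including all 9. With only the higher run of control females 1 member passed, and with only the lower run 14 did. The shares of all probes under these settings are not given here, so the shifts are not read as particular to the members.

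For 9 genes 2 probes were tested, which allowed the diet difference to be read separately on each. The brighter probe minus the other was fitted by limma for all 2190 genes with several tested probes. The other probes of Dnajb4 and Dnajc2 were detected on 5 and 0 of 21 Rapa female arrays, so divergence was counted only where both probes were detected on every array of both groups. This left 7 member genes (Cct3, Dnajb6, Dnajc19, Hspa2, Hspa8, Hspa9 and Hspd1). In Rapa against control females the probes diverged for 7 of 7, and for 59.3% of all 1233 genes so detected. The divergence was 1.11 ± 0.12 (SE) for Hspd1, rank 27 of 2190 by size, and -0.66 ± 0.08 for Hspa8, -0.41 ± 0.06 for Hspa9 and -0.34 ± 0.06 for Dnajc19. The median size over all 2190 genes was 0.16. All 21 Rapa females lay on the same side of the control mean for each of these 4 genes. In all Rapa against control males 3 of 7 diverged, and 26% of 1366 genes. These were Hspd1 (1.01 ± 0.30, rank 9), Dnajc19 (-0.18 ± 0.05) and Hspa9 (-0.18 ± 0.06). In control females against control males 4 of 7 diverged, and 59.1% of 1393 genes, with Hspd1 at 1.73 ± 0.09, Dnajb6 at -0.44 ± 0.09, Hspa8 at 0.33 ± 0.07 and Cct3 at 0.17 ± 0.05. Over all 2190 genes, without this limit, 57.2%, 22.9% and 57.2% diverged in these 3 comparisons, as did 9, 4 and 6 of the 9 member genes, Dnajb4 and Dnajc2 included. A divergence within an array shows unequal change of the probes, and which transcripts each probe reads was not examined.

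**Figure D4:**
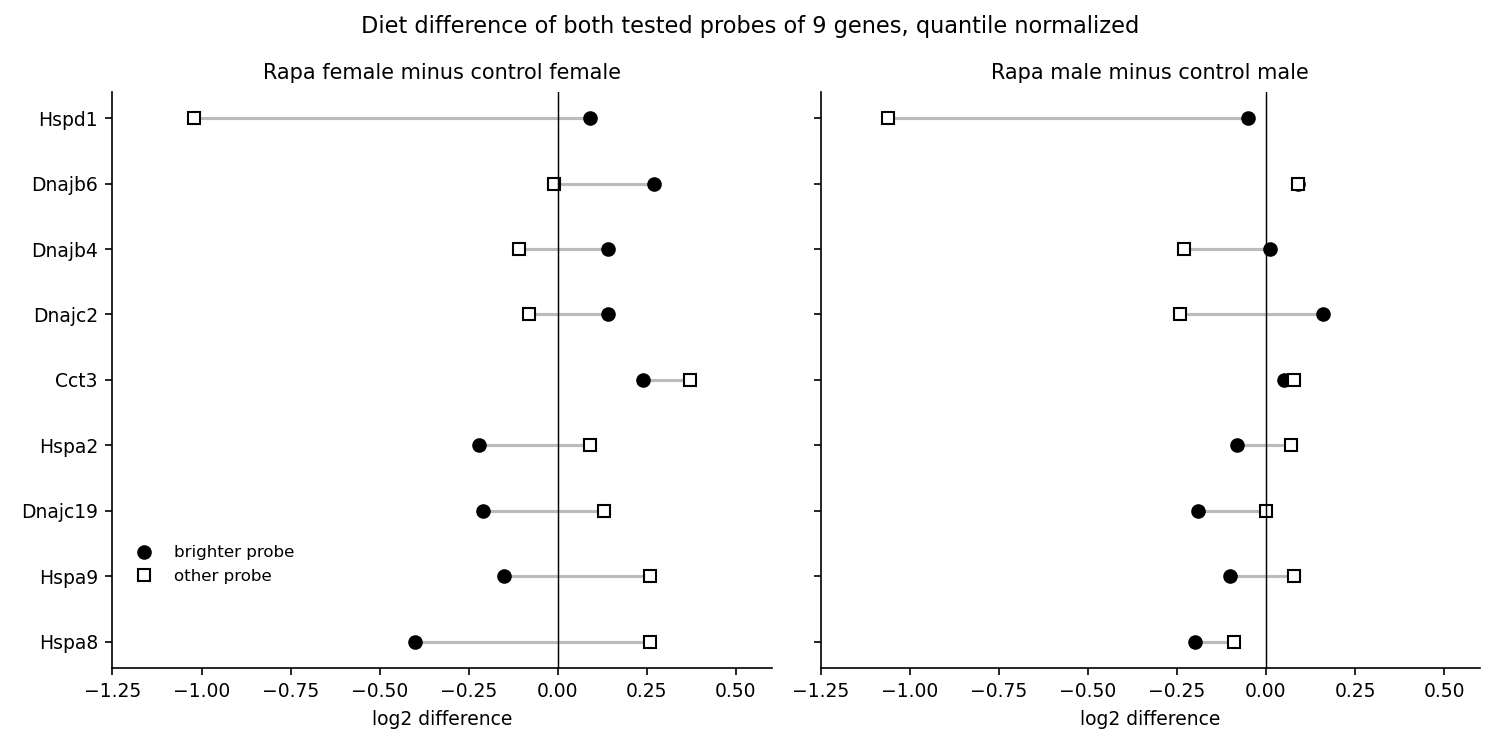
Log2 difference between Rapa and control (horizontal axes) of the brighter probe (filled circle) and the other probe (open square) of the 9 member genes with 2 tested probes, in females (left) and in all males (right), after quantile normalization. The probes of Hspd1 stand 1.11 apart in females and 1.01 in males, and those of Hspa8 have opposite signs in females, where the other probe is at -0.11 after median scaling. The other probes of Dnajb4 and Dnajc2 were not detected on all arrays.

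Members differed in how much they varied from mouse to mouse. Within groups the median SD was 0.93 for Dnajc12, 0.53 for Hsph1, 0.48 for Hspb1, 0.32 for Hspb8 and 0.31 for Dnajb1, the 5 widest of the 52 probes, while Dnaja1 was at rank 44 and Hspe1 at rank 27. Correlations of Dnajb1 with 7 partners were computed in the 3 largest groups, 21 relations in all. In Rapa females Hspa8 followed Dnajb1 with Pearson's r = 0.61 and Spearman's rho = 0.66 (permutation test, adjusted p = 0.0097 and 0.013), and r was 0.65 without the 2 mice farthest from the median. Hsph1 had r = 0.45 and rho = 0.54 there (adjusted p = 0.083 and 0.037), and Dnaja1 had r = -0.10. In control females Hsph1 followed Dnajb1 with r = 0.76 and rho = 0.70 (adjusted p = 0.0059 and 0.018), and r was 0.57 without the 2 farthest mice. Hspa8 had r = 0.73 and rho = 0.78, and Dnaja1, a partner of Hspa8, r = 0.65 and rho = 0.64, all passing. Dnaja1 was near background, detected on 6 of 21 Rapa female, 10 of 16 control female and 5 of 19 control male arrays. Hspa8 was read on its brighter probe in all groups, and its other probe was not run. In control males r was 0.72 for Hsph1, 0.72 for Hspa8, 0.58 for Dnaja1 and 0.70 for Bag3, an HSP70 exchange factor that HSF1 induces. Their rho was 0.64, 0.72, 0.48 and 0.56, of which that of Dnaja1 did not pass. Without the 2 farthest mice, r was 0.50, 0.70, 0.48 and 0.53. Hsph1 had r = 0.63 and 0.89 in the lower and higher run of control females, and r = 0.09 and 0.84 in those of control males. Hspa8 had r = 0.88 and 0.73 in the runs of control females and 0.90 and 0.70 in those of control males. In all, 1 partner passed by r in Rapa females, 3 in control females and 4 in control males, and 6, 5 and 5 passed after median scaling. Whether these correlations differ between the groups was not tested. The brighter Hspd1 probe and Hspe1 passed in no group, with r between -0.03 and 0.50.

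**Figure D5:**
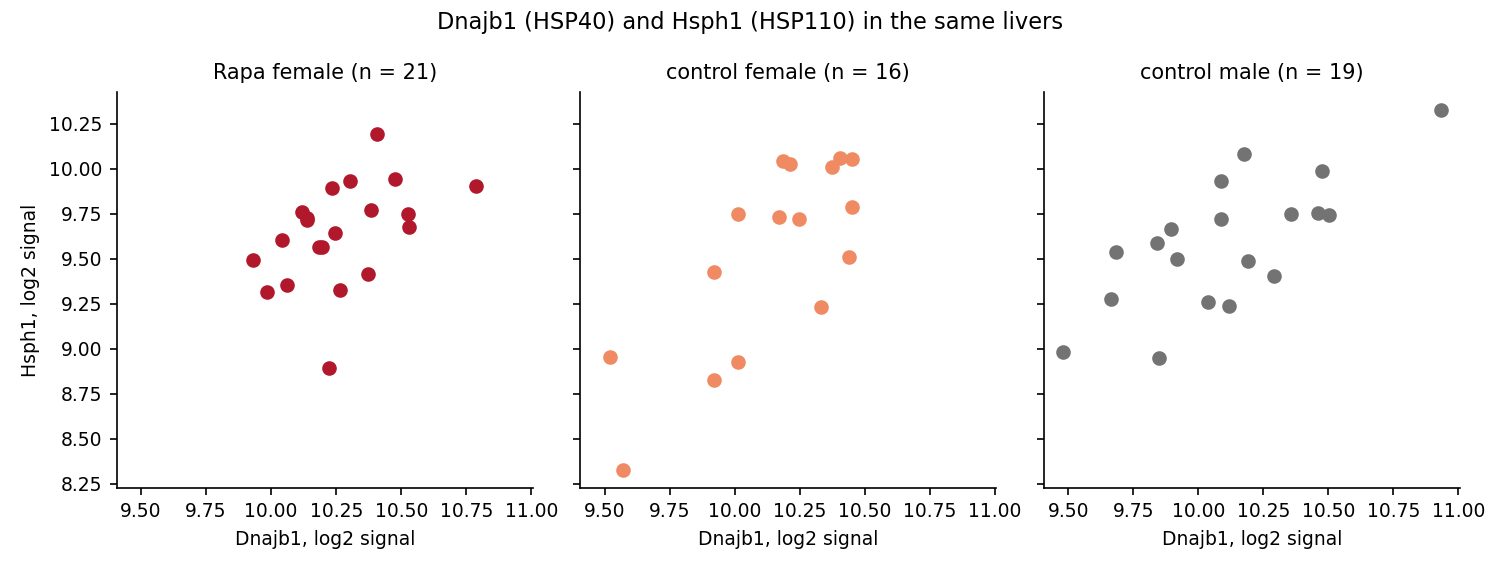
Log2 signal of Hsph1 (vertical axis) against that of Dnajb1 (horizontal axis) in 21 Rapa females, 16 control females and 19 control males, 1 point per mouse. Pearson's r was 0.45 in Rapa females, 0.76 in control females and 0.72 in control males.

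Partners of the members were read from lists outside the rule, in Rapa against control females, and their directions are those after quantile normalization. Over all 8729 tested genes, read by their brighter probe, 37.9% passed, 19.2% higher and 18.7% lower, with a median of 0.02. After median scaling, 0 genes of these lists passed as higher, and 0.458% of all genes did. Of all genes, 48.2% then passed as lower, the share to set beside the list counts below. Of 13 tested genes of HSP70 exchange factors and co-chaperones, 5 were higher (Hspbp1, itself a member, among them) and 0 lower (median 0.10), led by Sil1 (0.50), an exchange factor of the ER, and Tomm34 (0.32), a co-chaperone of mitochondrial import. After median scaling 7 of these 13 were lower. Of 17 HSP90 co-chaperones, 7 were higher and 2 lower (median 0.11), and after median scaling 5 were lower. The immunophilin Fkbp8 rose by 0.49 and Fkbp4 by 0.65, while Ppid fell by 0.50. Of 13 chaperonin partners and prefoldin genes, 5 were higher and 2 lower (median 0.05), and after median scaling 5 were lower. Tcp1, the CCT subunit that lacks the Cct symbol, fell by 0.90, Uri1 by 0.67, and the prefoldin subunit Pfdn2 rose by 0.60. Of 11 mitochondrial partners and proteases, 5 were higher and 1 lower (median 0.24), and after median scaling 2 were lower. Timm44, the import motor's anchor, rose by 0.43, Clpp (a matrix protease) by 0.40, and the inner-membrane protease Yme1l1 fell by 0.60. Of 3 HSF genes and regulators, Hsf4 rose by 0.29 and Hsbp1, a negative regulator of HSF1, fell by 0.25. Of 8 other heat shock or J-domain genes, 1 was higher and 2 lower, and after median scaling 5 were lower. The ER translocation protein Sec63 fell by 0.37.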

How the data were processed

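Livers of 69 mice were profiled on Illumina MouseRef-8 arrays. The authors read 1 average bead intensity per probe and deposited it untransformed. Detection was deposited as a score, from which the detection p is 1 minus the score. The authors also deposited log2 values after quantile normalization. Recomputed quantile-normalized log2 signals matched them with r of at least 0.99992 on every array. Symbols came from the platform annotation (23978 probes with 1 symbol, 1719 without).

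Each comparison was fitted on its own arrays with limma 3.58.1 (R 4.3.3), by two-sided moderated tests and Benjamini-Hochberg adjustment over 12442 probes, and were tested on simulated data. Passing required an adjusted p below 0.05 and a change above 15%, after the study's methods. The number of arrays limits the precision. Correlations used 100000 permutations. Labels do not say whether cages were shared, and p-values measure the spread between mice.

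Members and lists were chosen with earlier results of these data known. Named were the core chaperones, the 8 highest and 8 lowest passing members per comparison, those passing the interaction, and up to 3 genes per other list. Correlations with Hspa1b could not be run. Dnajb1 was taken in its place, and the probe pairs and counts limited to probes detected on every array were added, after the data were seen. Alternatives covered background correction, scaling, filters, fold minimum, covariates, the authors' values, the methods' t-test, a replicate block and subsets of samples. Sequences and pseudogene counts are from RefSeq (GRCm38.p6).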

Additional observations from a re-analysis of the deposited data

Results flagged for a closer look

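Among the tested members, 6 of 104 sets of Rapa-2 or Rapa-1 values had 1 mouse far from the others of its group, where chance gives about 1 in 20. In Rapa-2 males, mouse 4 was lowest for the other Hspd1 probe (8.98, the others 9.43 to 9.67), lowest for Dnajb12 (8.10, the others 8.48 to 8.63) and highest for Dnajc12 (9.08, the others 8.01 to 8.36). Mouse 5 of Rapa-2 was highest for Dnaja1 (6.95, the others 6.71 to 6.78). In Rapa-1 males, mouse 3 was lowest for the brighter Dnajc2 probe (7.65, the others 7.92 to 8.09) and highest for Dnajc8, a splicing-associated J-domain protein (7.31, the others 7.12 to 7.19).

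The diet difference differed between the sexes by the interaction test for 9 of 52 members (17.3%), close to the 17.5% of all probes. The female minus the male log2 difference was 0.62 for Dnajb2, 0.37 for Hspb6, 0.35 for Hspbp1, 0.35 for the other Hspa8 probe, 0.33 for Dnajc5, 0.29 for the other Cct3 probe, 0.28 for Dnajb12, -0.39 for Cct4 and -1.34 for Dnajc12. After median scaling only Cct4 and Dnajc12 kept their call, and the values of Hspb6, Dnajc5, Cct3 and Dnajb12 turned sign.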

How the results depend on the processing

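Counts of passing members are for Rapa against control females (21), all Rapa males (7) and Rapa-2 males (22) against control males, control females against control males (18) and the interaction (9). A 1.5-fold minimum left 4, 2, 4, 5 and 2. Median scaling gave 10 in Rapa-2 males and 14 in the interaction. Adding each array's detected share as a covariate left 7 in females and 1 in the interaction, and the raw array median left 0 in all Rapa males and 10 in Rapa-2 males and gave 16 in the interaction. Without a detection filter the interaction had 5, without Rapa-2 males 18, and with the lower or higher run of control females it had 14 and 1. With the lower or higher run of control males all Rapa males had 1 and 0. Rapa-1 males had 0 under every alternative run. The shares of all probes under these alternatives are not given beside the counts, so shifts are not read as particular to the members. Partners of Dnajb1 after median scaling numbered 6 in Rapa females and 5 in control females, against 1 and 3. The planned correlations with Hspa1b were not run.

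Signs turned after median scaling in females for Cct3 (-0.20, other probe -0.06), Dnaja3 (-0.17), Dnajb12 (-0.01), Dnajb6 (-0.18), Dnajc4 (-0.12), Dnajc5 (-0.06), the other probes of Hspa8 (-0.11) and Hspa9 (-0.13) and Hspb6 (-0.04). In the interaction they turned for the other Cct3 probe (-0.06), Dnajb12 (-0.04), Dnajc5 (-0.05) and Hspb6 (-0.01). With the raw array median they turned in all Rapa males for Cct8 (0.01), Dnaja2 (0.04) and Hspe1 (0.05), and in Rapa-2 males for Cct6a (-0.01) and Dnajb6 (-0.18). With the detected share Dnajc4 turned in females (-0.07). The cause was not tested.

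Replicate numbers are shared between groups but name different mice, and same-numbered arrays did not all deviate together. Their r was -0.52 to 0.27 in Rapa and control females (5 of 16 pairs over 0.1), -0.52 to 0.31 for Rapa-2 males (3 of 6), -0.33 to 0.35 for Rapa-1 males (2 of 7) and -0.53 to 0.46 between control females and males (10 of 16). With the replicate block 19, 1, 17, 21 and 5 members passed, in the order of comparisons above. Among the members named, probes near background limit Cct6b, Dnaja1, Dnaja2, Dnajc8, Hspa4 and the other probes of Dnajb4 and Dnajc2.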
